A study of Mus musculus with 8 samples.

Results

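The comparison of triple with double mutant mouse hearts was followed across 5245 genes, to see what goes with an altered Nkx2-5 added to altered Mkl2 and Myh7. They are the genes that the authors' deposited table tested in this comparison (status OK), at a locus the table gives to no other gene, with a level of 5 FPKM or more in either group. FPKM scales fragments by library size and transcript length, so levels can be set side by side between genes. The table lists 37982 genes, of which 12786 were tested in this comparison and 7038 of those had a locus of their own. Rows marked as holding too many fragments for an estimate (706 here) are listed at 0 and were treated as missing.

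RNA came from ventricles of C57BL/6 pups at postnatal day 7, with the atria trimmed off, and was made into stranded total RNA libraries. The labels give 3 double mutant and 3 triple mutant samples, and 2 wild type samples whose levels stand beside the others here only as a description. As known from the study, the double mutant carries altered Mkl2 and Myh7, and the triple mutant carries both of these and altered Nkx2-5, so every animal compared shares the first pair of alleles. The labels do not give the sex of the pups or the number of libraries per group in the authors' test. The table has 1 level per gene and group, so the spread between samples cannot be shown and the read depth is unknown. All p values come from the authors' own Cuffdiff run. Nothing in the labels ties each sample to a separate animal, so the p values speak at most for the libraries entered. How the test modelled the spread between those libraries is not given in the sources used here.

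Nkx2-5 encodes a homeodomain transcription factor that specifies and maintains heart muscle and acts with GATA and T-box factors. The Mkl2 protein, related to myocardin, lends serum response factor its activity, and Myh7 encodes the beta heavy chain of cardiac myosin, the slow isoform of the fetal mouse ventricle. In the mouse, heart muscle cells go through a last round of DNA synthesis in the days after birth, often without division of the cell, while the inner trabecular layer compacts and metabolism turns toward fatty acids. Endothelial cells, fibroblasts and pericytes of the same ventricle are still dividing at that age.

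Lists of cell cycle genes, drawn up with earlier results of these data known, held 102 of the genes once inhibitors and histones were left out. Of these 102, 19 rose in the triple mutant (0.991% of all the genes studied did so), to between 1.38 and 1.82 times their double mutant level. Among them were cyclin B1 (Ccnb1), the mitotic kinase Plk1, the kinetochore gene Cenpi and the spindle motor gene Kif11. With inhibitors and histones kept, 20 of 132 rose. The heart muscle gene Ankrd1, the smooth muscle actin gene Acta2 and the growth factor Bmp7 rose too. The falls included the transcription factor Klf2, the endothelial genes Ly6c1 and Aqp1, the growth factor Tgfb1, a pair of potassium channel genes and 2 genes of oxidative phosphorylation. A difference is called here where the q value of the authors' deposited table is under 0.05. Of the 5245 genes 101 were called (1.93%), with 52 higher (0.991%) and 49 lower (0.934%) when Nkx2-5 was altered too.

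Most genes moved little. The median log2 fold change, triple over double mutant, was -0.01 with an interquartile range of -0.15 to 0.13, and 47.6% of the genes had a positive value. In all, 4001 of the 5245 (76.3%) differed by less than 1.2-fold. The median called change was 1.56-fold upward and 1.54-fold downward, and only 8 called genes passed 2-fold, 4 in each direction. The lowest q value in the table is 0.0066, and 40 called genes share it.

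**Figure D1:**
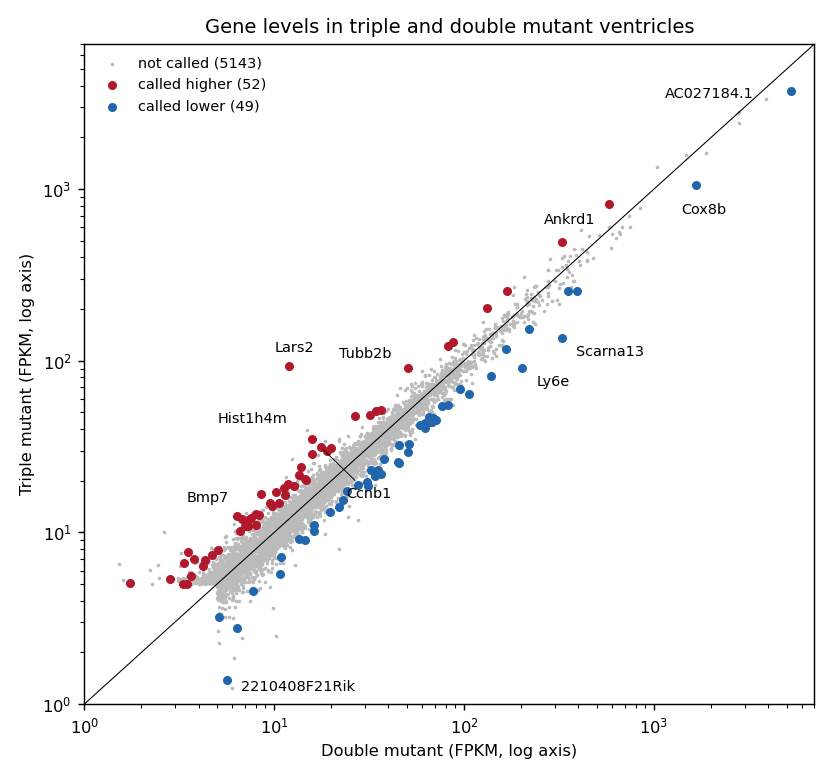
FPKM in the triple mutant (vertical, log axis) against the double mutant (horizontal, log axis), 1 point per gene, with the diagonal marking equal levels; 1 gene listed at 0 in one group is not drawn. The 52 genes called higher (red) and 49 called lower (blue) lie close to the diagonal apart from Lars2, Scarna13, Ly6e, 2210408F21Rik and a few others.

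The level cut of 5 FPKM fell inside a dense part of the range. Just above it lay 4930422G04Rik (3.30 FPKM in double and 5.03 in triple mutants) and Spna1, the erythroid spectrin gene (3.49 and 5.01), per the authors' deposited table. Just below it lay the primase subunit Prim1 (2.15 and 4.87) and Ankle1 (3.08 and 4.86) per the authors' deposited table. Of the 5245 genes, 336 reached the cut in only 1 of the groups, which favours genes that differ. Of the called genes, 15 entered that way, 11 higher and 4 lower.

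The altered genes were looked at first, although a coding change can leave the transcript level as it was. Nkx2-5 (ENSMUSG00000015579, mm9 chromosome 17, 26975609 to 26978510) stood at 53.1 FPKM in double mutants and 55.2 in triple mutants, with 43.6 in wild type, per the authors' deposited table (q = 0.955). The mutant groups are nearly level. Mkl2, whose locus is shared with another gene, stood at 30.6 and 26.0 per the authors' deposited table (q = 0.877), and Myh7 was among the rows with too many fragments to estimate. The file thus gives no sign at the transcript level by which the genotype labels could be checked.

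Sex-linked transcripts were looked at next. Xist, the RNA of the inactive X chromosome, stood at 1.21 FPKM in double and 88.2 in triple mutants per the authors' deposited table (q = 0.0066), in a locus shared with another gene. The Y-linked genes went the other way without a call: Uty 15.2 and 10.5 (q = 0.23), Ddx3y 14 and 10.02 (q = 0.077), and Eif2s3y 41.1 and 31.1 (q = 0.581) per the authors' deposited table. In wild type Uty stood at 5.61, Ddx3y at 4.82 and Eif2s3y at 10.2, below both mutant groups, and Xist has no wild type level here. The 2 mutant groups thus differed in Xist, and sex and genotype cannot be told apart in any result here, above or below. The same limit holds wherever a wild type level is set beside the mutants. The 191 X-linked genes had a median log2 fold change of 0.03, with 2 called higher and 1 lower.

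Genes of mitosis held many of the rises. Lists of cell cycle genes were drawn up with earlier results of these data known, and 102 of the genes fall in them once inhibitors and histones are left out. Of these 102, 19 were called higher and 0 lower, 92 had a positive log2 fold change, and the median was 0.43. The level cut lets in genes through the group where they are higher, and of the 91 that reached 5 FPKM in both groups 18 were called higher and 82 were positive, with a median of 0.42. Over all 5245 genes the median was -0.01, with 0.991% called higher. The lists hold many more genes: 241 were listed, and 100 of these sit in shared loci, 30 lay under the level cut and 5 had too many fragments to estimate.

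Among the cyclins, Ccnb1, the partner of Cdk1 at mitotic entry (ENSMUSG00000041431, mm9 chromosome 13, 101548605 to 101556525), rose from 17.6 to 31.4 FPKM, with 26.9 in wild type, per the authors' deposited table (1.79-fold, q = 0.0066). It was the single call among 6 cyclin and cyclin-dependent kinase genes, all positive, with a median of 0.21. Cks1b, an adaptor of the cyclin-dependent kinases, stood at 31.9 and 36.6 (q = 0.738), and Cdk2, the kinase of S phase, at 23.6 and 24.3 (q = 0.97), per the authors' deposited table. Both differed little between the groups.

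The list of mitotic kinases and spindle checkpoint genes had 5 of 17 called higher, none lower, and a median of 0.51. Hmmr, a spindle-associated hyaluronan receptor, rose from 15.8 to 28.7 FPKM (wild type 17.9, 1.82-fold, q = 0.0066) per the authors' deposited table. Cdca3, which triggers destruction of the mitosis inhibitor Wee1, rose from 26.5 to 47.7 (wild type 29.6, 1.8-fold, q = 0.0114) per the authors' deposited table. For both genes the wild type value lay close to the double mutant, and the triple mutant was the highest of the 3 groups. In most of the 19 called cell cycle genes, by contrast, wild type lay nearer to the triple mutant or above it. Ccnb1, Cenpi, Casc5, Rrm2 and Xrcc2 are among these. Plk1, the polo-like kinase of mitosis, rose from 7.29 to 11.8 (wild type 9.04, 1.62-fold, q = 0.0066) per the authors' deposited table. The centrosome kinase Nek2 rose from 12.7 to 18.6 (wild type 15.7, 1.47-fold, q = 0.0342) per the authors' deposited table. Birc5, the survivin subunit of the chromosomal passenger complex, stood at 37.5 and 51.0 (q = 0.202) per the authors' deposited table. Pttg1, the securin that inhibits separase until anaphase, was the 1 member on the negative side, at 39.5 and 34.8 (q = 0.916) per the authors' deposited table.

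At the centromere, 4 of 15 genes were called higher (3 of the 13 that reached 5 FPKM in both groups), and the median was 0.52. Cenpi, a subunit of the inner kinetochore, rose from 6.77 to 11.9 FPKM (wild type 10.3, 1.76-fold, q = 0.0066) per the authors' deposited table. Cenpf and Cenpe, proteins of the outer corona, rose from 18.9 to 29.9 and from 3.63 to 5.58 per the authors' deposited table (1.58-fold and 1.54-fold, each q = 0.0066). Their wild type levels were 27.0 and 4.76. Casc5, the scaffold that recruits the checkpoint kinase Bub1, rose from 14.5 to 20.6 (wild type 21.7, 1.42-fold, q = 0.015) per the authors' deposited table. Cenpa, the histone H3 variant of the centromere, stood at 52.9 and 71.0 (q = 0.441) per the authors' deposited table.

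Spindle motors and cytokinesis genes had the highest median of the cell cycle lists, 0.58, with 6 of 14 called higher (6 of the 12 that reached 5 FPKM in both groups). Tacc3, which stabilises spindle microtubules, rose from 13.8 to 24.2 FPKM (wild type 16.3, 1.75-fold, q = 0.0214) per the authors' deposited table. The bipolar spindle motor Kif11 rose from 11.2 to 18.2 (wild type 13.9, 1.62-fold, q = 0.0066) per the authors' deposited table. Anln, the anillin of the contractile ring, rose from 7.55 to 12.1 (wild type 10.2, 1.60-fold, q = 0.0066), and the spindle pole gene Aspm from 19.95 to 30.9 (wild type 24.2, 1.55-fold, q = 0.0066), per the authors' deposited table. Anillin is needed to divide the cell, and Aspm to place the spindle. Iqgap3, a scaffold of the cell cortex, rose from 7.06 to 10.9 (wild type 10.6, 1.55-fold, q = 0.0184) per the authors' deposited table. Of the called genes in no list, Gtse1, a microtubule-bound regulator of G2 and M phase, rose from 2.82 to 5.38 (wild type 4.27, 1.91-fold, q = 0.0114) per the authors' deposited table. Gtse1 reached the level cut only in the triple mutant.

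**Figure D2:**
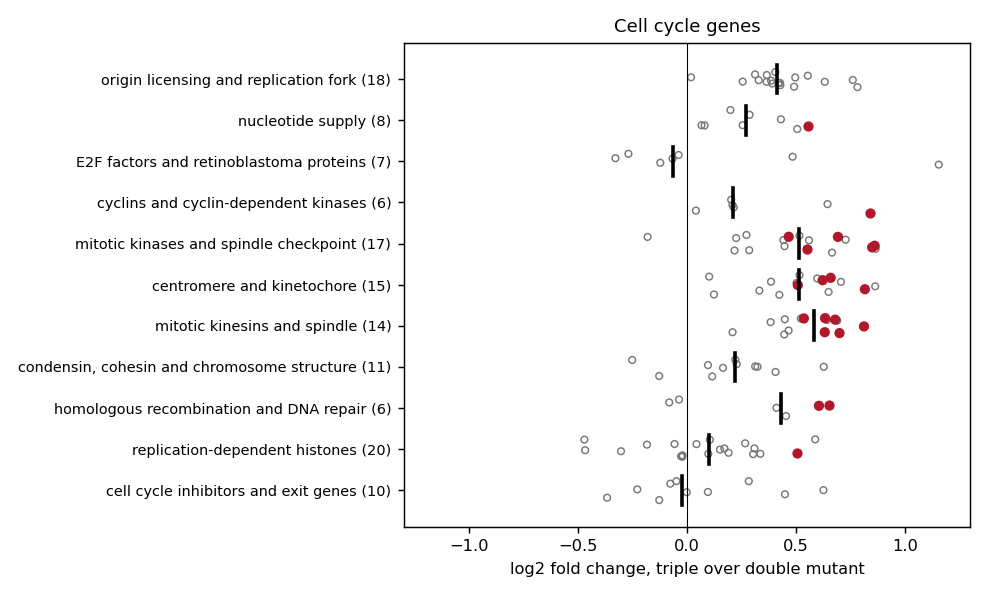
Log2 fold change, triple over double mutant, of the genes in 11 cell cycle lists (number of genes in brackets); filled red points are called higher, open points are not called, and black bars are list medians. The mitotic kinase, centromere and spindle lists have medians of 0.51, 0.52 and 0.58, and the inhibitor list is centred near 0.

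In DNA replication, of the 18 origin licensing and replication fork genes 0 were called, and the median was 0.41. Only 14 of them reached 5 FPKM in both groups, and these were all positive with a median of 0.40. The helicase subunit Mcm2 stood at 16.9 and 21.8 FPKM (q = 0.178), the sliding clamp Pcna at 26.7 and 33.1 (q = 0.463) and the hemimethylated DNA reader Uhrf1 at 15.97 and 21.5 (q = 0.498) per the authors' deposited table. With no level cut 2 of the list are called higher, Prim1 and the licensing factor Cdc6, which rose from 1.52 to 3.40 FPKM per the authors' deposited table (q = 0.0066). Of 8 nucleotide supply genes, Rrm2, the S phase subunit of ribonucleotide reductase, was called: it rose from 34.5 to 50.7 (wild type 49.98, 1.47-fold, q = 0.0321) per the authors' deposited table. Its partner Rrm1 stood at 14.5 and 19.5 (q = 0.0781) per the authors' deposited table.

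Among 6 genes of recombination and repair, 2 were called higher. Xrcc2, which acts in homologous recombination, rose from 9.45 to 14.9 FPKM (wild type 18.7, 1.57-fold, q = 0.0184), and the DNA glycosylase Neil3 from 8.28 to 12.6 (wild type 12.2, 1.52-fold, q = 0.0321), per the authors' deposited table. The 11 condensin, cohesin and chromosome structure genes had a median of 0.22 and 0 calls. Replication-dependent histones were mixed: of 20, 12 were positive, the median was 0.10, and the linker histone gene Hist1h1e alone was called (579 to 821, 1.42-fold, q = 0.038 per the authors' deposited table). Hist1h4m, a histone H4 gene outside that list, rose from 15.8 to 34.8 (wild type 31.3, 2.21-fold, q = 0.0244) per the authors' deposited table. Histone messages lack a poly(A) tail, and these total RNA libraries are able to hold them.

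The regulators of the programme that were measured did not move as a group. The 7 E2F and retinoblastoma family genes had a median of -0.07 with 2 positive and 0 called. Of 19 listed, 8 sit in shared loci and 4 lay under the level cut. The 6 that reached 5 FPKM in both groups had a median of -0.10 with 1 positive. Among them E2f6, a repressor, stood at 22.6 and 20.7 FPKM (q = 0.857), and the E2F partner Tfdp2 at 14.1 and 13.7 (q = 0.972), per the authors' deposited table. The 2 positive members, named after their values were seen, were the activator E2f1 (6.21 and 8.69, q = 0.165) and the mitotic gene activator Mybl2 (2.26 and 5.03, q = 0.0629) per the authors' deposited table. Mybl2 reached the level cut only in the triple mutant. The 10 inhibitors and exit genes had a median of -0.03, with 4 positive and 0 called. Ccng1, a p53-induced cyclin, stood at 236 and 224 (q = 0.941) and the antiproliferative gene Tob1 at 63.7 and 58.2 (q = 0.816) per the authors' deposited table.

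Tubulin genes, grouped after their values were seen, moved in the same direction. Of 9 tubulin genes 4 were called higher and 8 were positive, with a median of 0.47. Tubb2b rose from 50.6 to 90.3 FPKM (wild type 67.9, 1.78-fold) and its neighbour Tubb2a from 87.3 to 129 (wild type 124, 1.48-fold), each at q = 0.0066 per the authors' deposited table. These adjacent genes are near-identical copies, so their shares of the reads are uncertain. Tuba1b rose from 132 to 204 (wild type 136, 1.55-fold) and Tubb6 from 82.6 to 122 (wild type 111, 1.47-fold), each at q = 0.0066 per the authors' deposited table. Tubb5, the most abundant, stood at 284 and 392 (q = 0.101) per the authors' deposited table.

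**Figure D3:**
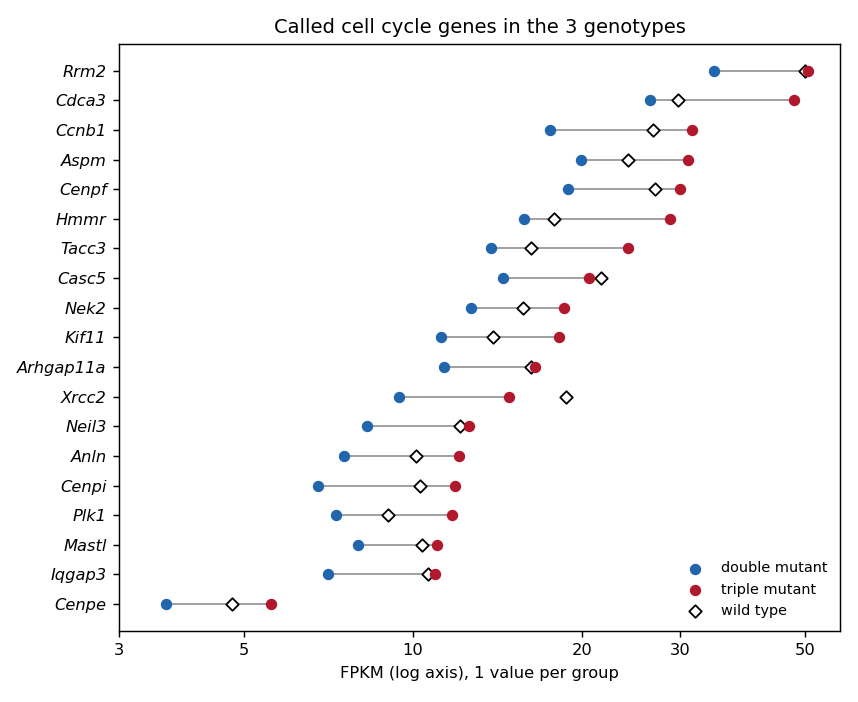
FPKM (log axis, 1 value per group with no error available) of the 19 called cell cycle genes other than histones in the double mutant (blue), triple mutant (red) and wild type (open diamonds). The red points lie to the right of the blue in every gene, from 3.63 and 5.58 in Cenpe to 34.5 and 50.7 in Rrm2.

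The start sites of these genes are shown because many mitotic genes carry 2 kinds of short element, a CCAAT box and the cell cycle homology region. It is through the cell cycle homology region that such genes are held off outside G2 and M phase. Each window runs from 250 bases before to 50 after the start of the gene, 5′ to 3′ on the gene's strand, from RefSeq on GRCm38.p6, and is not part of the deposited data. Capitals mark CCAAT, or its complement ATTGG, and TTTGAA, or its complement TTCAAA. The windows are chr13:100786437-100786736 (minus strand) for Ccnb1, chr7:122159185-122159484 (plus) for Plk1, chr6:124829926-124830225 (plus) for Cdca3 and chr11:40733388-40733687 (minus) for Hmmr.
Ccnb1: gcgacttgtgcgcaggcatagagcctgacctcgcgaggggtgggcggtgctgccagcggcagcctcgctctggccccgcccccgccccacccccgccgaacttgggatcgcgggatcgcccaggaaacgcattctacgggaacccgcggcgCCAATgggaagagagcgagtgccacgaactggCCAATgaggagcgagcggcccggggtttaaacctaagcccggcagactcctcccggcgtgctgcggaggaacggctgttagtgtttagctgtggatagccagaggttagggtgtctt
Plk1: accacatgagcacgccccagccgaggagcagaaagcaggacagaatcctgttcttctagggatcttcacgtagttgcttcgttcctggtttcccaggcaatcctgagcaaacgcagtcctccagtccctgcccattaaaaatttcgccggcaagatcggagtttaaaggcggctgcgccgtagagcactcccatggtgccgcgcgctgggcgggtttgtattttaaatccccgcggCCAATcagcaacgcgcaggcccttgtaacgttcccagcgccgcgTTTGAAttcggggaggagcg
Cdca3: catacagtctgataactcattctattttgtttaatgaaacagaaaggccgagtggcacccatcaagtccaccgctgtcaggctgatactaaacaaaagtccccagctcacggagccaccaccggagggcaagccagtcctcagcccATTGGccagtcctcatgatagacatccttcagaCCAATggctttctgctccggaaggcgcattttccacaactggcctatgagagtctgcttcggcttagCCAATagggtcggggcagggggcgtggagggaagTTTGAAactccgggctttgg
Hmmr: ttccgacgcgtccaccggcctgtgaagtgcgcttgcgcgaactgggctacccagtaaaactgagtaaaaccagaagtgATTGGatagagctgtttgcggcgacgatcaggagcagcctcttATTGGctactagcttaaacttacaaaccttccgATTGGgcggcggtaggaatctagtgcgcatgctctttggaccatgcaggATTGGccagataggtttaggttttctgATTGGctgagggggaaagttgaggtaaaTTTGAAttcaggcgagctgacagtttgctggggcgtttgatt
Of these windows, Ccnb1 holds 2 CCAAT boxes and no TTTGAA, whereas Plk1, Cdca3 and Hmmr hold 1 TTTGAA each, close to the start. The motifs were searched on both strands and counted separately, so matches of different motifs may overlap. Genes with exactly 1 window in the RefSeq table were counted, which covers 17 of the 19 called cell cycle genes. Among these 17, 9 windows held TTTGAA (52.9%), 13 held CCAAT (76.5%) and 7 held both (41.2%). Among the 57 cell cycle genes not called the shares were 36.8%, 63.2% and 31.6%, so the motifs were common in the lists with or without a call. Among the 2928 of the 5245 genes with a window, from which the called genes come, the shares were 11.3%, 40% and 5.12%, and over all 22862 promoters of the table they were 18.5%, 38.2% and 7.21%. The 22 windows of genes called lower held TTTGAA in 3 (13.6%), CCAAT in 5 (22.7%) and both in 0. The Nkx2-5 binding element TNAAGTG lay in 5 of 34 windows of genes called higher (14.7%) and 3 of 22 of those called lower (13.6%), against 7.41% of the 2928 windows and 11.5% of all promoters. A match is only a stretch of letters in this window.

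Genes of the stressed or fetal heart muscle gave 2 calls. The list of natriuretic and fetal genes had 9 of 10 positive, a median of 0.13 and 2 called higher. Ankrd1, a stress-responsive ankyrin repeat protein of the sarcomere and nucleus, rose from 329 to 489 FPKM (wild type 315, 1.49-fold, q = 0.0271) per the authors' deposited table. Acta2, the smooth muscle actin that immature heart muscle cells also make, rose from 169 to 254 (wild type 199, 1.5-fold, q = 0.0066) per the authors' deposited table. For both genes the triple mutant was the highest of the 3 groups. Tnni1, the slow troponin I of the fetal heart, stood at 211 and 244 (q = 0.575), and the small chaperone Cryab at 446 and 428 (q = 0.945), per the authors' deposited table.

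Ankrd1 and Acta2 were also the 2 calls among 15 genes controlled by serum response factor with its myocardin family partners, a list with 12 positive and a median of 0.11. Myl9, the light chain of smooth muscle myosin, stood at 182 and 242 FPKM (q = 0.0727) per the authors' deposited table. The actin-severing gene Dstn stood at 208 and 230 (q = 0.784) per the authors' deposited table. The list as a whole was thus less shifted than the mitotic lists.

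The transcription factors of the heart that were measured were close to level, with 6 of 12 positive, 0 called and a median of -0.02. Of the 37 found in the file, 15 sit in shared loci, 6 had too many fragments to estimate and 4 were not tested. The core factors Gata4 (75.9 and 93.1, q = 0.632), Tbx20 (88.1 and 95.0, q = 0.873) and Mef2c (88.3 and 89.2, q = 0.991) did not pass per the authors' deposited table. Of 13 sarcomere genes 0 were called, with a median of 0.02, but 21 sarcomere genes had too many fragments to estimate, so the most abundant contractile genes were not measured. Ky, a muscle protein of the Z-disc, was called lower: 10.7 in double and 5.73 in triple mutants (wild type 6.42, 1.86-fold lower, q = 0.0066) per the authors' deposited table.

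Ion channel and calcium handling genes gave 2 falls among 22, with a median of -0.10. Kcnip2, the subunit that sets the transient outward potassium current, fell from 68.4 to 46.2 FPKM (wild type 46.4, 1.48-fold lower, q = 0.0066) per the authors' deposited table. Kcnj8, the pore of the ATP-sensitive channel in vessel wall cells, fell from 23.1 to 15.4 (wild type 17.6, 1.5-fold lower, q = 0.0114) per the authors' deposited table. In Kcnip2 the triple mutant and wild type were nearly level and the double mutant stood above them. The calcium-binding gene Hrc stood at 237 and 163 (q = 0.062), and Casq2, the calcium store protein, at 216 and 223 (q = 0.966), per the authors' deposited table.

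Among signalling genes Bmp7 and Tgfb1 were called in opposite directions. Bmp7, a bone morphogenetic protein (mm9 chromosome 2, 172693513 to 172765822), rose from 6.35 to 12.5 FPKM (wild type 10.5, 1.96-fold, q = 0.0066) per the authors' deposited table. Tgfb1, the transforming growth factor that drives matrix production, fell from 14.6 to 8.98 (wild type 9.93, 1.62-fold lower, q = 0.0184) per the authors' deposited table. They were the 2 calls among 17 genes of the pathway, whose median was -0.03. The effector Smad5 stood at 66.2 and 64.1 (q = 0.972) and the target Id1 at 62.5 and 61.1 (q = 0.975) per the authors' deposited table. Bmp7 was also the 1 call among 26 genes of trabeculation and compaction, where 8 were positive and the median was -0.12.

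Notch and growth factor genes lay slightly lower without a call. The 13 Notch genes had 3 positive and a median of -0.14, with the target Hes1 at 32.0 and 29.3 FPKM (q = 0.883) per the authors' deposited table. The 18 genes of FGF, neuregulin, PDGF and VEGF signalling had 3 positive and a median of -0.25. Vegfb stood at 749 and 603 (q = 0.351) and Vegfa at 250 and 239 (q = 0.966) per the authors' deposited table. The 11 Wnt genes had a median of -0.07 and 0 calls.

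Genes near Nkx2-5 were examined for their place beside the added allele. Within 1 Mb of it lie 13 other genes of the 5245, of which 1 was called, and no further call lies within 10 Mb, where 117 of the genes are found. The called gene, Neurl1b, a neuralized-type ubiquitin ligase of Notch ligands named here after its values were seen (mm9 chromosome 17, 26551910 to 26583283), lies 392 kb away. It rose from 13.6 to 21.7 FPKM (wild type 22.1, 1.60-fold, q = 0.0066) per the authors' deposited table, to the wild type level. The lowest log2 fold change within 1 Mb was that of Axin1, the scaffold of beta-catenin destruction, also named after its values were seen. It stood at 27.6 in double and 11.9 in triple mutants, with 26.7 in wild type, per the authors' deposited table, and did not pass (q = 0.219).

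Markers of endothelium were lower in the triple mutant. Of 19 endothelial genes 18 were negative and 2 were called lower, against 0.934% of all the genes, with a median of -0.27. Their summed level went from 1121 to 898 FPKM. Ly6c1, a surface antigen of capillary endothelium, fell from 62.5 to 40.4 (wild type 43.5, 1.55-fold lower, q = 0.0114), and the water channel Aqp1 from 95.5 to 68.1 (wild type 85.2, 1.40-fold lower, q = 0.0342), per the authors' deposited table. The junction gene Cldn5 stood at 147 and 107 (q = 0.0527) and the cadherin Cdh5 at 218 and 188 (q = 0.657) per the authors' deposited table. In bulk tissue fewer cells of a type and less RNA per cell cannot be told apart.

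Several called falls outside that list are also known from endothelium, and were grouped after their values were seen. The apelin receptor Aplnr fell from 67.8 to 43.9 FPKM (1.54-fold lower, q = 0.0066), thrombomodulin (Thbd) from 30.8 to 19.6 (1.57-fold lower, q = 0.0066) and the transcription factor Sox7 from 65.7 to 47.0 (1.40-fold lower, q = 0.0271) per the authors' deposited table. Klf2, a factor induced in endothelium by blood flow, fell from 44.8 to 25.9 (wild type 30.4, 1.73-fold lower, q = 0.0066) per the authors' deposited table. Klf2 belongs to a list of 17 immediate early genes, as do the other 2 falls in that list, Nr4a1 and Klf4. Nr4a1, an orphan nuclear receptor, fell from 27.5 to 18.9 (q = 0.0321), and the Kruppel-like factor Klf4 from 58.5 to 42.4 (q = 0.0418), per the authors' deposited table. The list median was -0.16, and its most abundant uncalled members included the phosphatase Dusp1 (56.1 and 45.9, q = 0.396) and Klf6 (55.4 and 54.7, q = 0.985) per the authors' deposited table.

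Fibroblast and matrix genes were lower without a call. All 14 fibroblast markers were negative with a median of -0.27, and their summed level went from 755 to 620 FPKM. Decorin (Dcn) stood at 125 and 109 (q = 0.637) and lumican (Lum) at 91.8 and 73.3 (q = 0.248) per the authors' deposited table. The 27 collagen and matrix genes had 6 positive and a median of -0.17, with Sparc at 743 and 693 (q = 0.928) per the authors' deposited table. The 11 pericyte and smooth muscle genes had a median of -0.20, with Acta2 called higher and Kcnj8 lower. Rgs5, which marks pericytes, stood at 272 and 213 (q = 0.335) per the authors' deposited table.

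Markers of blood cells gave 2 calls. The 8 macrophage markers had a median of -0.19 and 0 calls, and the 6 mast cell markers a median of 0.00 and 0 calls. Of 2 neutrophil genes the calprotectin subunit S100a9 rose from 8.57 to 16.7 FPKM (wild type 4.93, 1.95-fold, q = 0.0244) per the authors' deposited table, and its partner S100a8 stood at 2.48 and 5.42 (q = 0.492). Among 6 erythroid genes, with a summed level of 666 and 578 FPKM, Spna1 was the 1 call, and the globin Hba-a1 stood at 134 and 119 (q = 0.759) per the authors' deposited table. Spna1 reached the level cut only in the triple mutant, where it is higher. Of the 5 erythroid genes that reached 5 FPKM in both groups, 0 were called and 0 were positive. The 4 atrial markers had a summed level of 104 and 92.0 FPKM and 0 calls, and none of the lymphocyte, Schwann cell or adipocyte markers is among the 5245 genes. Of 18 ventricular muscle markers 12 had too many fragments to estimate, and the 5 that were measured had a median of 0.26 with Ankrd1 called. What part any shift in cell types has in the cell cycle calls was not tested.

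**Figure D4:**
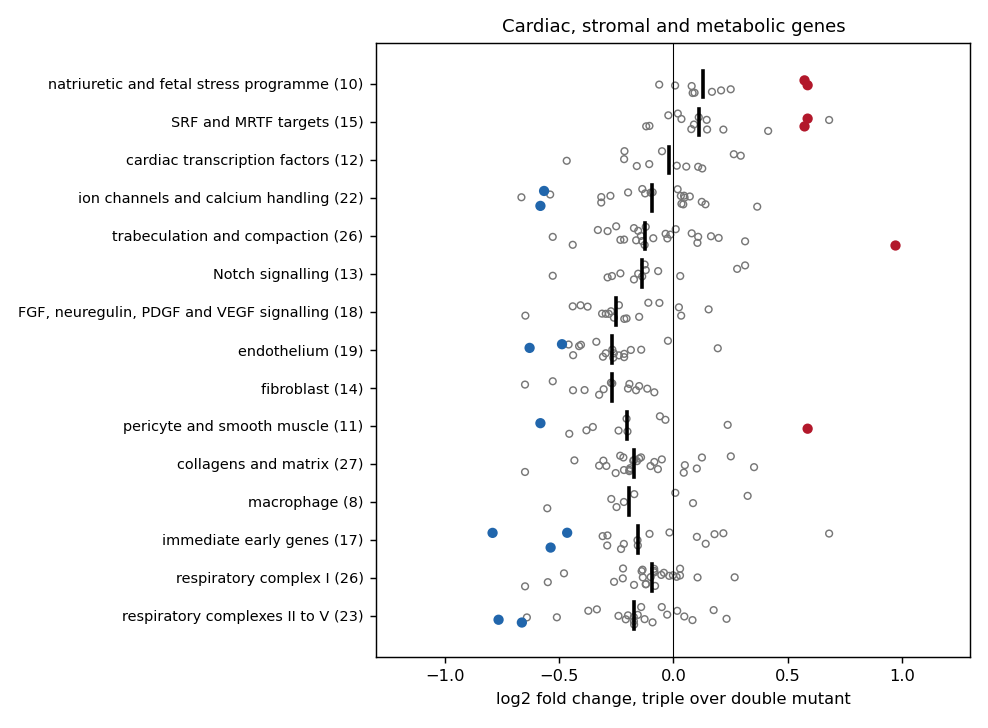
Log2 fold change, triple over double mutant, of the genes in 15 cardiac, signalling, cell type and metabolic lists (number of genes in brackets), with called genes filled (red higher, blue lower) and black bars at the medians. The endothelial and fibroblast lists are centred at -0.27, and the points called higher are Ankrd1, Acta2 and Bmp7.

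Of 23 genes of respiratory complexes II to V, 2 were called lower (8.7%, against 0.934% of all the genes) and the median was -0.17. Cox8b, the muscle isoform of a small cytochrome oxidase subunit (mm9 chromosome 7, 148084842 to 148086345), fell from 1666 to 1052 FPKM (wild type 848, 1.58-fold lower, q = 0.0066) per the authors' deposited table. Atp5j2, a subunit of the ATP synthase membrane part, fell from 139 to 81.9 (wild type 67.4, 1.70-fold lower, q = 0.0066) per the authors' deposited table. In both the double mutant was the highest of the 3 groups and the triple mutant lay between it and wild type. The abundant complex III subunits Uqcrq (842 and 771, q = 0.854) and Uqcrfs1 (678 and 602, q = 0.752) did not pass per the authors' deposited table. The 26 complex I genes had a median of -0.09 and 0 calls.

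In fatty acid metabolism 1 of 27 genes was called, and the median was -0.08. Acot1, a cytosolic acyl-CoA thioesterase, rose from 32.0 to 48.1 FPKM (wild type 45.1, 1.5-fold, q = 0.0066) per the authors' deposited table. The mitochondrial transferase Cpt2 stood at 406 and 361 (q = 0.772) per the authors' deposited table. Outside the lists, G0s2, the inhibitor of fat lipase, fell from 106 to 64.4 (wild type 55.8, 1.65-fold lower, q = 0.0066), and Ppp1r3c, which brings phosphatase to glycogen, from 50.8 to 29.4 (wild type 32.4, 1.73-fold lower, q = 0.0066), per the authors' deposited table. The clock gene Per3 fell from 19.8 to 13.2 (1.5-fold lower, q = 0.015) per the authors' deposited table, the 1 call among 8 clock genes.

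Lars2, the mitochondrial leucyl-tRNA synthetase (mm9 chromosome 9, 123276058 to 123371782), had the largest fold of the 101 called genes. It stood at 12.0 FPKM in double mutants and 92.8 in triple mutants, with 22.2 in wild type, per the authors' deposited table (7.73-fold, q = 0.0066). Of the 17 aminoacyl-tRNA synthetases it was the 1 call, and the list median was 0.08. It also stands in a list of small noncoding RNA and other signs of library composition, where it and Scarna13 were the 2 calls among 4 genes, in opposite directions. What part library composition has in its level was not tested. Its phenylalanine counterpart of the mitochondrion, Fars2, stood at 43.4 and 47.2 (q = 0.843) per the authors' deposited table.

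Falls were also called in genes of small RNA and of the ribosome. Scarna13, a small RNA of the Cajal body (mm9 chromosome 12, 106269285 to 106269559), fell from 328 to 136 FPKM (wild type 152, 2.40-fold lower, q = 0.0066) per the authors' deposited table. AC027184.1, a 319 base gene that GENCODE types as a ribozyme and that was named after its value was seen, fell from 5293 to 3749 (1.41-fold lower, q = 0.0458) per the authors' deposited table. It has the highest level of any called gene. Rps26, the single call among 29 cytosolic ribosomal protein genes, fell from 45.6 to 25.3 (wild type 28.9, 1.8-fold lower, q = 0.0114) per the authors' deposited table. Ribosomal protein genes have many processed copies in the genome, so such values are uncertain. The list median was -0.03, and Rplp1 stood at 1882 and 1624 (q = 0.597) per the authors' deposited table.

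The remaining large rises were of mixed function. B3gnt5, a glycolipid glycosyltransferase, rose from 3.52 to 7.67 FPKM (wild type 7.50, 2.18-fold, q = 0.0114), and Fgfbp3, a binding protein that frees FGF from the matrix, from 3.34 to 6.66 (wild type 4.24, 1.99-fold, q = 0.0066), per the authors' deposited table. Crh, the corticotropin-releasing hormone, rose from 3.78 to 6.96 (q = 0.0496), and the uncharacterised 8430419K02Rik from 1.74 to 5.06 (2.91-fold, q = 0.0066), per the authors' deposited table. B3gnt5, Fgfbp3, Crh and 8430419K02Rik reached the level cut only in the triple mutant, so they were admitted through the group where they are higher. Zbtb16, a glucocorticoid-induced zinc finger factor, rose from 5.09 to 7.88 per the authors' deposited table (q = 0.0066), with 15.3 in wild type. In Zbtb16 both mutant groups lay below wild type, and the triple mutant was the nearer.

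The remaining large falls included Ly6e, an interferon-inducible surface antigen (mm9 chromosome 15, 74785481 to 74790335), which went from 202 to 91.2 FPKM (wild type 104, 2.21-fold lower, q = 0.0066) per the authors' deposited table. It was the 1 call among 11 interferon-stimulated genes, whose median was 0.05, and Ifitm3 stood at 69.4 and 49.1 (q = 0.0663) per the authors' deposited table. Rtn4r, the Nogo receptor, fell from 6.34 to 2.78 (wild type 3.77, 2.28-fold lower, q = 0.015), and 2210408F21Rik from 5.62 to 1.37 (wild type 1.85, 4.09-fold lower, q = 0.0184), per the authors' deposited table. Tox2, a nuclear factor, fell from 7.70 to 4.53 (1.70-fold lower, q = 0.038), Trappc1, a vesicle tethering subunit, from 36.6 to 22 (1.66-fold lower, q = 0.0271) and 6530418L21Rik from 31.1 to 18.6 (1.67-fold lower, q = 0.0066) per the authors' deposited table. Rtn4r, 2210408F21Rik and Tox2 reached the level cut only in the double mutant, so they were admitted through the group where they are higher. In Ly6e and Rtn4r the wild type level lay nearer to the triple than to the double mutant.

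Genes called higher and lower differed in level and in transcript length. The median of the larger group's FPKM was 16.6 for genes called higher, 45.6 for genes called lower and 16.3 for all 5245. The longest GENCODE transcript had a median of 3318.5 bases in the genes called higher, 2281 in those called lower and 3335 over all genes with a length (98.6% of them). With the genes in 5 bins by length, the shortest bin (134 to 1847 bases) held 7 genes called higher and 17 lower (median log2 fold change -0.04), and the longest bin (5223 bases and up) held 12 called higher and 5 lower (median 0.01). The falls listed above thus include many short genes, and how far length enters them was not tested.

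Calls were more frequent at high levels. Of the 201 genes that differed by 1.5-fold or more, 15 of 93 (16.1%) were called at a level of 5 to 10 FPKM, 22 of 62 (35.5%) at 10 to 25, 22 of 37 (59.5%) at 25 to 100 and 8 of 9 (88.9%) above that. A difference of that size in a gene near the level cut was thus mostly not called.

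**Figure D5:**
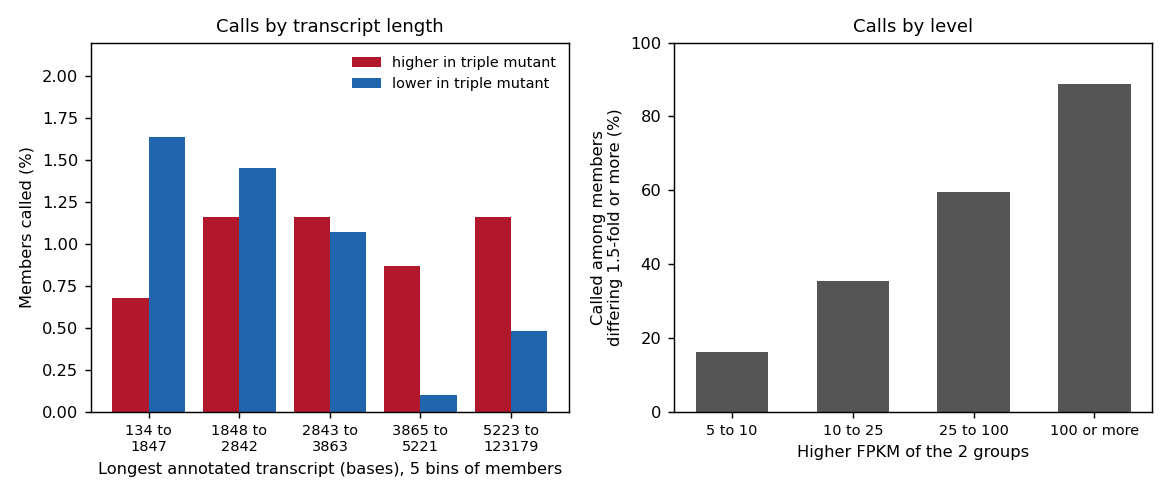
Left, the percentage of genes called higher (red) and lower (blue) in each of 5 bins by longest annotated transcript; right, the percentage called among genes differing by 1.5-fold or more, by the higher FPKM of the mutant groups. Calls in the lower direction were 17 in the shortest bin and 5 in the longest, and the called percentage on the right rises from 16.1% to 88.9%.

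Called genes lay on many chromosomes. The called share was highest on chromosome 19 (3.93%, 4 higher and 3 lower) and chromosome 15 (3.81%, 3 higher and 5 lower), against 1.93% of all the genes. On chromosome 13, picked out for its directions after the values were seen, 6 of 236 genes were called (2.54%), near the share of all the genes. All were higher, among them Ccnb1, Hist1h4m, Hist1h1e, Tubb2a and Tubb2b. On chromosome 17, which holds Nkx2-5, 1 of 240 was called (0.417%). There were 13 pairs of called genes within 1 Mb of each other, 10 of them in the same direction. Some genes stand in several of these pairs, and the share of such pairs over all the genes was not counted. The pairs include Ly6e and Ly6c1, 85.1 kb apart and both lower, and Tubb2a and Tubb2b, 49.0 kb apart and both higher.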

How the data were processed

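Ventricular total RNA of 8 mouse samples (3 double mutant, 3 triple mutant, 2 wild type, at postnatal day 7) was sequenced, and groups were taken from the genotype labels. Per the submitters' processing notes the build was mm9 and the tools were STAR 2.5.2, Cuffdiff 2.2.1, Cufflinks 2.2.1 and CASAVA 1.8. Which annotation and which normalization they used is not given in the sources used here. Per the file headers, the authors deposited 1 FPKM per gene and group, the log2 fold change, a test score, and a p-value and q-value for each of 3 comparisons. A Benjamini-Hochberg adjustment over all 38806 tested rows of the 3 comparisons gives the deposited q-values (largest difference 5.26442e-07), and the authors' own mark lies at 0.1. FPKM keeps no depth, and the file gives no standard error, so neither depth per sample nor an interval can be stated.

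Genes were taken with status OK, a locus of their own and an FPKM of 5 or more in either mutant group; a call needs a q-value under 0.05. No new test was run: 61 gene lists are described by counts and medians. The members and lists were chosen with earlier results of these data known. Of 1769 list entries 1746 matched by symbol and 9 by synonym. Genes named are the 14 largest called rises and falls, up to 4 called rises and falls and 3 most abundant members per list, the altered genes and the sex-linked genes, besides those at the level cut. E2f1, Mybl2, Cdc6, Tubb2a, Tuba1b, Tubb6, Neurl1b, Axin1, Aplnr, Thbd, Sox7, Scara5, Tnxb, AC027184.1 and the genes under other observations were added after their values were seen. Coordinates are the file's (mm9, start plus 1). GENCODE M21 gave transcript length and type, and RefSeq (GRCm38.p6) the promoters. Scripts used Python 3.11.15, pandas 2.3.3 and numpy 2.4.6 and were tested on simulated data. A prefix in the sample descriptions divides each mutant group into 2 and 1 samples and, with no value per sample, could not be examined as a batch. Alternatives were other q, fold and FPKM cuts, rescaling, a pseudocount and shared loci kept.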

Additional observations from a re-analysis of the deposited data

How the results depend on the processing

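The 101 calls became 161 at the authors' own q mark of 0.1, 40 at a q under 0.01 and 67 when a fold of 1.5 was also asked. Genes called higher numbered 25 at a q under 0.01, and genes called lower 84 at 0.1, 15 at 0.01 and 29 with the fold of 1.5. With q values adjusted within this comparison alone 77 of the 101 remained. The 24 lost include Klf4, Aqp1, Nek2, Hist1h1e, Crh and Tox2, with Aqp1 and Nek2 at a q of 0.0503. Rescaling to a median of 0 or by the FPKM sums moved all log2 fold changes alike, and a pseudocount cannot turn a direction. A pseudocount of 1 FPKM took 2210408F21Rik from -2.03 to -1.48, 8430419K02Rik from 1.54 to 1.15 and Rtn4r from -1.19 to -0.96 (log2). List medians moved by more than 0.1 in 2 of 49 lists at an FPKM minimum of 1, in 2 of 52 with no minimum, in 2 of 52 with shared loci kept, and in 0 of 52 when both groups had to reach 5. No paired analysis was possible because the file has no values per sample, and for the same reason no sample could be left out in turn. Levels near 5 FPKM limit what could be called.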

Other observations

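Genes set aside by the choice of members also held calls: 36 of 4139 in shared loci at 5 FPKM or more (21 higher, 15 lower), 14 of 1793 single-locus genes under that level (11 and 3) and 9 of 1609 with both (6 and 3). All genes named here were chosen after their values were seen. Cell division genes recur among them per the authors' deposited table, where Ccna2, the cyclin of S and G2 phase, went from 63.7 to 98.3 FPKM (q = 0.0244) and Ube2c, a ubiquitin-conjugating enzyme of mitotic exit, from 11.7 to 21.4 (q = 0.0066). With shared loci kept, 34 of 232 cell cycle genes other than inhibitors and histones were called higher and 0 lower, with a median log2 fold change of 0.42.

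Nppa, the atrial natriuretic peptide gene, rose from 505 to 829 FPKM in a shared locus, with 919 in wild type, per the authors' deposited table (1.64-fold, q = 0.0066). The osteopontin gene Spp1 stood at 0.295 and 3.77, with 0.501 in wild type, per the authors' deposited table (q = 0.0066), all under the level cut. RNase_MRP, the RNA of a ribonucleoprotein that processes ribosomal RNA, fell from 1317 to 751 in a shared locus of the authors' deposited table (1.75-fold lower, q = 0.0066).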
